A study of Mus musculus and Homo sapiens with 9 samples.

Results

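Splicing factor and hnRNP genes were followed through 9 lists of CUT&Tag peaks. The set held every protein-coding gene whose symbol starts with SRSF, HNRNP, SF3A, SF3B, U2AF, SNRP or PRPF, which gave 68 of 21938 mouse genes in GENCODE M21 (mm10) and 76 of 20033 human genes in GENCODE v44 (hg38). In mouse these were 11 SRSF, 20 HNRNP, 3 SF3A, 6 SF3B, 3 U2AF, 12 SNRP and 13 PRPF genes, and in human 12, 27, 3, 6, 3, 12 and 13. A gene was counted as having a promoter peak when the midpoint of a peak lay within 1 kb of any of its annotated transcription start sites (TSSs).

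CUT&Tag directs a transposase to an antibody's target and sequences the DNA tagged beside it. S9.6 recognises hybrids of RNA and DNA and served to map R-loops, in which nascent RNA pairs with its DNA template and the other DNA strand is displaced. The cells were mouse embryonic fibroblasts (MEFs) and the human line HEK293, derived from embryonic kidney, and each group had 1 library. S9.6 was used in Mcm8 wild-type (WT) MEFs, in Mcm8 knockout (KO) MEFs lacking exon 7 of the gene for the helicase MCM8, and in MEFs given an adenovirus with a control hairpin (shControl) or a hairpin against the RNA helicase DDX5 (shDdx5), and a library of wild-type MEFs had no primary antibody. All MEFs were grown from the trunks of mid-gestation embryos and immortalised with SV40 sequence, so each is a cultured line and not a set of animals. HEK293 cells, wild type at MCM8, were treated with mouse IgG, with anti-FLAG after transfection of FLAG-MCM8, with S9.6, or with S9.6 after transfection of a plasmid that the labels call RNH1 and that the study uses as RNase H1, an enzyme that digests hybrids. With 1 library per group, no test between conditions was possible, and the 95% Wilson intervals given here cover counting error over genes only.

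Splicing removes introns while RNA polymerase is still transcribing, and the proteins encoded by these genes act on the nascent RNA that can also form an R-loop. SR proteins (SRSF genes) bind exonic enhancers and recruit the spliceosome, whereas hnRNPs (HNRNP genes) coat nascent transcripts and often block or shift splice site choice. U2AF recognises the end of the intron, and SF3A and SF3B are the parts of the U2 snRNP that clamp the branch point. SNRP genes encode proteins of the snRNPs, and PRPF genes encode further spliceosome subunits and their regulators.

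The 3 pairs of sequences below are windows under S9.6 peaks of HNRNP genes that had a promoter peak in all 4 S9.6 lists of MEFs and in the S9.6, RNH1 and FLAG-MCM8 lists of HEK293 cells, described below, and are shown because they are among the genes with the most repeated signal in both species. The windows without exon sequence nearest to the summits of the shDdx5 and the HEK293 S9.6 peaks were read on the strand of the gene, with runs of 3 or more G in capitals, since G runs in the displaced strand are known to favour R-loops. Mouse Hnrnpk was read at chr13:58402147-58402247 (minus strand, mm10), and human HNRNPK at chr9:83980363-83980463 (minus strand, hg38), both in an intron. Mouse Hnrnpl came from chr7:28810571-28810671 (plus strand) and human HNRNPL from chr19:38850114-38850214 (minus strand), both in an intron near an internal start. Mouse Hnrnpul2 came from chr19:8819692-8819792 (plus strand) and human HNRNPUL2 from chr11:62727582-62727682 (minus strand), both upstream of the gene. Which strand was displaced was not measured, and upstream of a gene it need not be the strand shown.
Hnrnpk, mouse: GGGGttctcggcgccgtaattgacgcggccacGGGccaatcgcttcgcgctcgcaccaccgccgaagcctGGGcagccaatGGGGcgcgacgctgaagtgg
HNRNPK, human: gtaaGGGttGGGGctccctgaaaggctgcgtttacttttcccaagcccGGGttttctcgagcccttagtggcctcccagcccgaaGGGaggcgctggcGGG
Hnrnpl, mouse: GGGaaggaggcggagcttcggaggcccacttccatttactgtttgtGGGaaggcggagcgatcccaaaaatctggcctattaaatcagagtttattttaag
HNRNPL, human: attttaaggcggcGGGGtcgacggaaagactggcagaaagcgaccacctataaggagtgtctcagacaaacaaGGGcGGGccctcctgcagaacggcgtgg
Hnrnpul2, mouse: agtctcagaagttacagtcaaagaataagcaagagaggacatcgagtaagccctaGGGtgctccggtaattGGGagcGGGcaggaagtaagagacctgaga
HNRNPUL2, human: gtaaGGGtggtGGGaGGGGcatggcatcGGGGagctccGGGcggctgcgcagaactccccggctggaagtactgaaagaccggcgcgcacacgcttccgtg

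The Hnrnpk window held 4 G runs and 15 CpGs in 70.3% GC, and the HNRNPK window 5 G runs and 6 CpGs in 63.4% GC. The Hnrnpl window held 2 G runs and the HNRNPL window 3, while the Hnrnpul2 and HNRNPUL2 windows held 3 and 5. HNRNPF also met this choice, but its mouse peak held no window without exon sequence, and its human window, not printed, held 1 G run and 6 runs of C in 82.2% GC. G runs are common at promoters, as 79.6% of all mouse and 82.7% of all human coding genes held at least 1 in the 100 bases before the gene start, against 76.5% and 80.3% of the splicing factor and hnRNP genes.

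Promoter peaks were more frequent at splicing factor and hnRNP genes than at coding genes in general in every S9.6 list. Of the 68 mouse genes, 21 had a promoter peak in WT (30.9%, interval 21.2 to 42.6%, against 11.3% of all coding genes). In KO 24 had one (35.3%, interval 25 to 47.2%, against 16.0%), in shControl 28 (41.2%, interval 30.3 to 53.0%, against 14.7%) and in shDdx5 33 (48.5%, interval 37.1 to 60.2%, against 23.1%). Without antibody only 2 of the 68 had one (2.94%, interval 0.81 to 10.1%, against 1.24%). In HEK293 cells 44 of 76 human genes had a promoter peak in S9.6 (57.9%, interval 46.7 to 68.4%, against 30.1%) and 40 after the RNH1 plasmid (52.6%, interval 41.6 to 63.5%, against 24.6%). The FLAG-MCM8 list had one at 26 (34.2%, interval 24.5 to 45.4%, against 12%), and the IgG list at 7 (9.21%, interval 4.53 to 17.8%, against 5.59%).

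**Figure D1:**
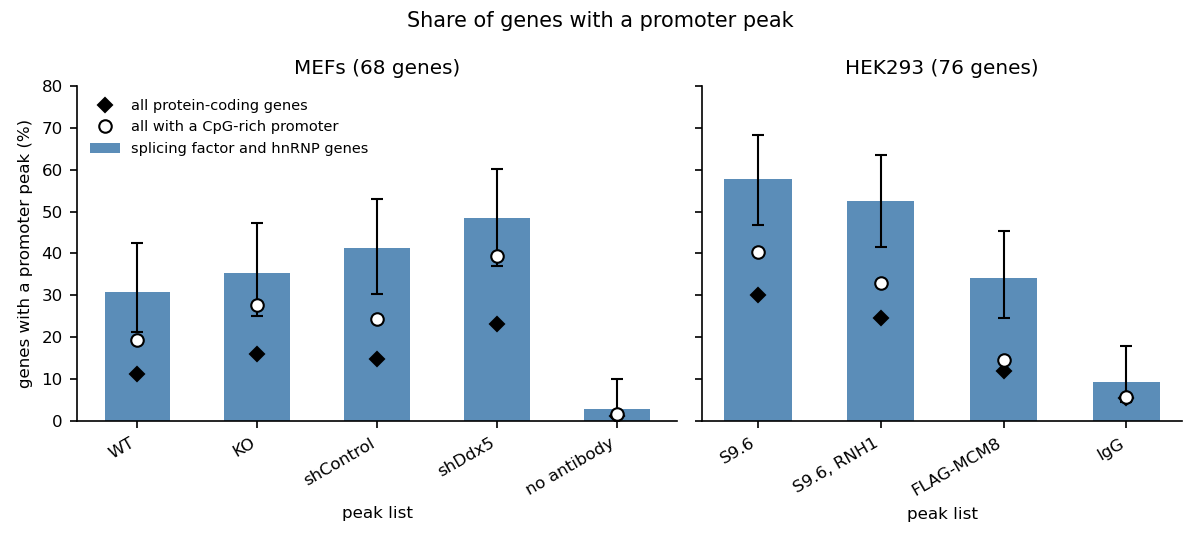
Share of genes with a promoter peak (percent, vertical axis) in each peak list, for 68 mouse genes (left) and 76 human genes (right). Bars are splicing factor and hnRNP genes with 95% Wilson intervals, diamonds are all protein-coding genes and open circles all with a CpG-rich promoter. The bars of the 4 S9.6 lists of MEFs stand at 30.9 to 48.5% and the diamonds at 11.3 to 23.1%, and the circles lie inside the intervals of KO and shDdx5.

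These genes also differed from the average gene in their promoters, and the plot of shares by list shows how much of the difference this left. A promoter was called CpG-rich when the 500 bases on each side of the gene start had a GC content of at least 50% and a ratio of observed to expected CpG of at least 0.6. By this measure 58 of 68 mouse members were CpG-rich (85.3%, against 44.4% of all) and 66 of 76 human members (86.8%, against 57.9%). Among CpG-rich genes alone, the share with a promoter peak was 32.8% of members against 19.4% of all in WT, 36.2% against 27.8% in KO, 41.4% against 24.3% in shControl and 29 of 58 members against 39.4% in shDdx5. It was 62.1% against 40.3% in S9.6, 57.6% against 32.9% after the RNH1 plasmid and 37.9% against 14.6% in FLAG-MCM8. The gap to the background thus narrowed most in KO and shDdx5, where the background share fell inside the interval of the members (25.1 to 49.1% and 37.5 to 62.5%), and was not narrowed in FLAG-MCM8. Members had more annotated TSSs (a median of 5 against 3 in mouse and 8 against 5 in human), which gives a peak more places to be counted. With only the gene start as TSS, 26.5% of members had a promoter peak in WT against 9.23% of all genes, and 41.2% against 19.8% in shDdx5. Another coding gene had a TSS within 1 kb at 25 of the 68 mouse and 30 of the 76 human members (36.8% and 39.5%, against 14.6% and 23.3% of all), and at such promoters a peak cannot be assigned to either gene.

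The promoter sequences shared features that the choice of genes did not use. In the 300 bases from 250 before to 50 after the gene start, the ETS core CCGGAAG was found on either strand at 25% of mouse members against 10.8% of all coding genes, and at 27.6% against 11.9% in human. The YY1 core ATGGCGG was found at 13.2% against 4.79% in mouse and at 13.2% against 5.78% in human, and the CCAAT box CCAAT at 48.5% against 39.0% and 51.3% against 35.9%. The TATA box TATAAA was at 11.8% against 12.6% and 10.5% against 10.8%. Among CpG-rich promoters the ETS core was at 25.9% of mouse members against 18.6% of all, and at 31.8% against 17.6% in human, and the TATA box at 12.1% (7 of 58) against 5.83% and at 10.6% (7 of 66) against 5.18%. The NRF1 part CATGCGC was at 4.41% against 4.96% and 9.21% against 5.27%, and the palindrome TCTCGCGAG at 1.47% against 0.898% and 1.32% against 0.834%. None of these motifs contains another, and a match is a description of the letters and not a bound site.

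Depth, list length and peak strength limit how far lists can be set side by side. The S9.6 lists of MEFs held 6481 to 12259 peaks and the no-antibody list 4314, at a p of 0.001 or lower, and the HEK293 lists 12497 to 17178 peaks, at 1e-05 or lower, so MEF and HEK293 lists were not compared in size. Recovered depth was 5729 to 7001 fragments per Mb in the S9.6 lists of MEFs and 720 without antibody, so the no-antibody list is a much shallower control, while the HEK293 lists had 8314 to 11050. Chromosome 7 held 6.4% of WT and 5.99% of KO peaks but 3.31% of shControl and 3.42% of shDdx5 peaks, and its part in the results for Hnrnpl, Hnrnpul1, U2af2, Snrpa, Snrpa1 and Snrpd2, which lie there, was not tested. A promoter peak does not measure expression, and of 9 fibroblast markers only Vim, for vimentin, had one in all 4 S9.6 lists of MEFs, with Pdgfra also in shControl and Twist1 in shDdx5. Of 7 markers of blood, endothelial, epithelial and germ cells none had one in MEFs, and EPCAM had one in both S9.6 lists of HEK293 cells. Of 5 genes used as HEK293 markers, PAX2 had one in S9.6 and VIM after the RNH1 plasmid, so LHX1, NEFL and NEFM had none.

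In the S9.6 lists of MEFs, HNRNP genes had promoter peaks more often than the other members pooled, most clearly in shDdx5. In WT they did not stand apart from each family, as 5 of 11 SRSF (45.5%) and 2 of 3 U2AF genes had one. All 20 mouse HNRNP genes had a promoter peak in shDdx5, with a lower bound of the interval at 83.9%, whereas 13 did in shControl, 13 in KO and 9 in WT (65.0%, 65.0% and 45.0%), and none did without antibody. All coding genes stood at 23.1%, 14.7%, 16.0% and 11.3% in the same order. The 48 members of the other 6 families showed no such order, with 12 in WT against 11 in KO (25% and 22.9%) and 15 in shControl against 13 in shDdx5 (31.2% and 27.1%). In KO and shDdx5 the shares of all coding genes lay inside the intervals of these members (13.3 to 36.5% and 16.6 to 41.0%). The HNRNP family was singled out after its counts were seen. It has a median of 8 annotated TSSs per gene, and with only the gene start as TSS its counts in the same 4 lists, WT first, were 6, 9, 9 and 16. With the 6481 strongest peaks of each of these lists they were 9, 10, 13 and 15, and among the 12 HNRNP genes with no other coding TSS within 1 kb they were 5, 7, 7 and 12. All coding genes were also highest in shDdx5, at 9.23%, 13.5%, 11.7% and 19.8% with the gene start only, at 11.3%, 13.4%, 10.9% and 17.6% with the strongest peaks, and at 9.47%, 13.4%, 12.4% and 19.7% of genes with no other coding TSS within 1 kb. With a fold of at least 4 the HNRNP counts were 8, 7, 7 and 13 (all coding genes 4.48%, 7.02%, 5.58% and 11.3%), and with a q of 0.05 or lower 9, 8, 12 and 16 (6.32%, 9.8%, 7.69% and 18.6%). With the 4314 strongest peaks of each MEF list the HNRNP counts were 9, 9, 12 and 14 (9.12%, 10.8%, 9.06% and 14.1%). shDdx5 thus stood highest under each of these settings, with a smaller lead over shControl at 4314 peaks. The higher count in KO than in WT was not kept with the fold, the q or the 4314-peak setting. All coding genes still stood higher in KO under each of those.

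**Figure D2:**
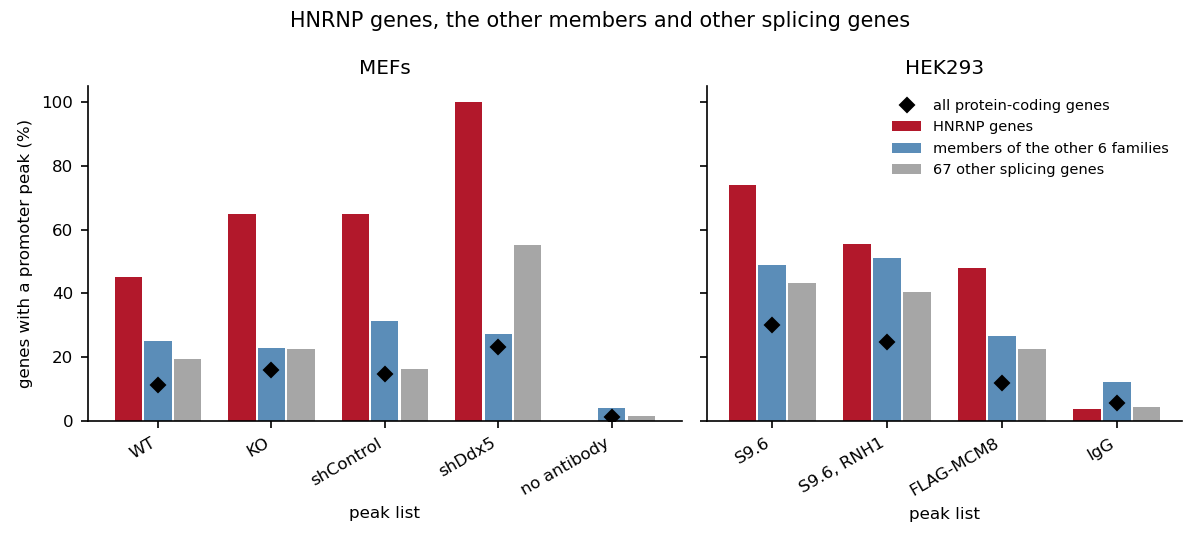
Share of genes with a promoter peak (percent, vertical axis) by peak list in MEFs (left) and HEK293 cells (right), for HNRNP genes (red), members of the other 6 families (blue) and 67 other splicing genes (grey), with all protein-coding genes as diamonds. In shDdx5 the red bar covers all 20 genes and the grey bar reaches 55.2%, while the blue bar stands at 27.1%.

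A further 67 genes of the splicing machinery outside these families were counted in the same way. They include snRNP proteins named otherwise, DEAH-box helicases, RBM proteins and the kinases that phosphorylate SR proteins. Of these, 13 had a promoter peak in WT against 15 in KO (19.4% and 22.4%), 11 in shControl against 37 in shDdx5 (16.4% and 55.2%), and 1 without antibody. All coding genes stood at 11.3%, 16.0%, 14.7% and 23.1% in the 4 S9.6 lists, so the shControl share was near the background. The shDdx5 genes included Ptbp1, which represses exons, Tardbp, an RNA-binding protein of nascent transcripts, the SR protein kinases Clk1, Clk3, Clk4 and Srpk1, and Tra2b, Srrm1 and Srrm2, relatives of the SR proteins. With the 6481 strongest peaks of each list, 7 were counted in shControl and 29 in shDdx5, against 10.9% and 17.6% of all coding genes. In HEK293 cells 29 of the 67 had a promoter peak in S9.6, 27 after the RNH1 plasmid, 15 in FLAG-MCM8 and 3 in IgG (43.3%, 40.3%, 22.4% and 4.48%, against 30.1%, 24.6%, 12% and 5.59% of all). HNRNP genes and this second list thus had more promoter peaks in shDdx5 than in shControl, as had all coding genes (5068 against 3234), while the members of the other 6 families had 13 against 15, and these differences between gene groups were not tested.

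The mouse genes with the most repeated signal were 12 with a promoter peak in all 4 S9.6 lists (17.6%, against 4.19% of all coding genes). They included Hnrnpf, Hnrnph3, Hnrnpk, Hnrnpl, Hnrnpul1, Hnrnpul2, Prpf4, Sf3b2, Snrpd3, Srsf2 and U2af2. At the other end, 20 members had none (29.4%, against 66.1%), and no HNRNP gene was among them. At 9 of the 12 the peaks of the 4 lists had a base in common, whereas those of Hnrnpf, Sf3b2 and U2af2 did not. The values below are the deposited fold enrichment at the summit over local background. The highest is given where a gene had several peaks in a list. They depend on the depth of each library and were not tested.

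Hnrnpul2, a nuclear protein related to the scaffold protein hnRNP U, had a fold of 4.64 in WT and 5.78 in KO, and of 5.04 in shControl and 7.58 in shDdx5, with 15, 20, 16 and 30 fragments over the summit. This was the highest value of any mouse member, its summit lay at -268 bp from the TSS in 3 of the 4 lists and at -264 bp in KO, and the gene shares its start region with Ttc9c. Its relative Hnrnpul1 had folds of 4.93, 5.0, 4.29 and 5.73 in the same order, with no other coding TSS within 1 kb. Hnrnpk, which binds C-rich RNA and DNA, had its highest fold in WT (6.0) and lower ones in KO (4.06), shControl (4.88) and shDdx5 (4.81). Hnrnpl, which binds CA repeats, had folds of 4.52, 4.23, 4.85 and 5.23, and Hnrnph3, which belongs to the G-run binding hnRNP H family, 4.37, 5.51, 3.81 and 5.41. For Hnrnpf, of the same H family, the folds were 3.74, 2.8, 3.86 and 4.56. Hnrnpf was thus lowest in KO, where its −log10 q was 0.492, while Hnrnpul2 and Hnrnph3 were higher in KO than in WT.

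Among the other repeated genes, Srsf2, an SR protein needed for exon inclusion, had folds of 4.54 in WT and 5.23 in KO, and of 3.07 in shControl and 4.44 in shDdx5. It lies beside Mfsd11, with which it shares its promoter. U2af2, the large subunit of U2AF, had 3.58, 3.9, 3.33 and 3.62. Its WT value came from a peak in a coding exon at an internal TSS, while its WT peak upstream of the gene had 3.17. Sf3b2, a subunit that contacts the branch point region, had 3.54, 4.2, 3.2 and 2.7, and Snrpd3, of the Sm ring that surrounds snRNAs, 3.13, 3.66, 4.74 and 4.46. These showed no common order over the 4 lists. Prpf4, a protein of the U4/U6 snRNP that shares its promoter with Cdc26, had 4.8, 3.95, 6.13 and 4.6, its highest value in shControl.

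**Figure D3:**
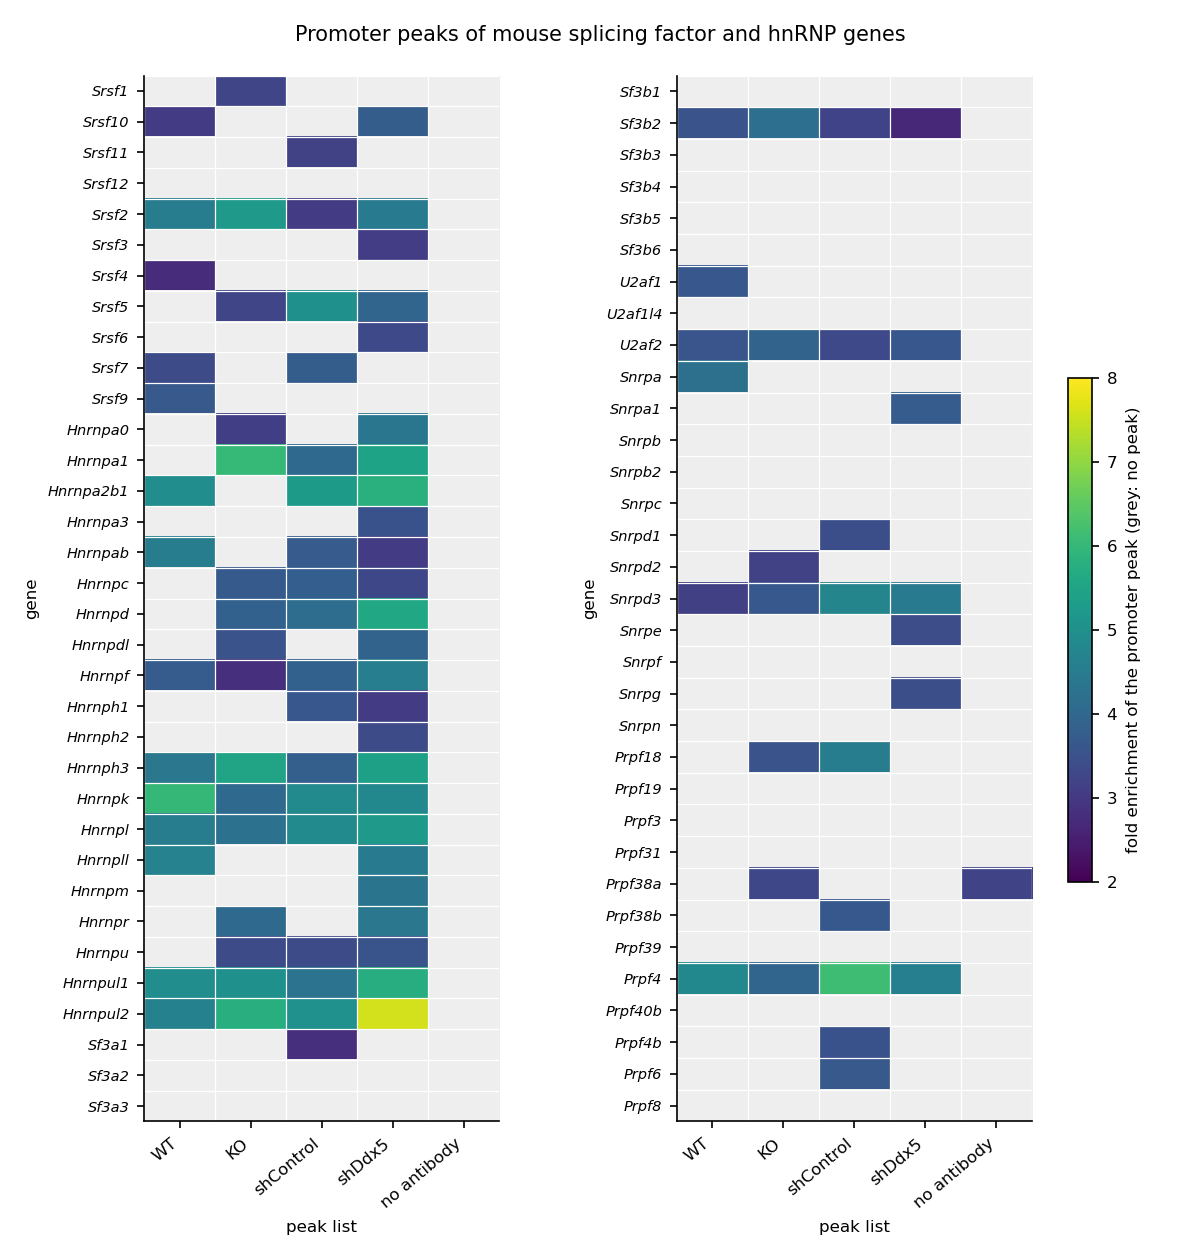
Fold enrichment of the promoter peak (colour, linear scale from 2 to 8) of mouse splicing factor and hnRNP genes (rows, in order of family, with 1 of the 68 left out) in the 5 peak lists of MEFs (columns), with grey for no peak and the highest fold where a gene had several peaks. The HNRNP block is filled in all 20 rows of the shDdx5 column, the brightest cell is Hnrnpul2 in shDdx5 at 7.58, and the only filled cell of the no-antibody column is Prpf38a.

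The comparison of KO with WT asked whether these promoters carry more R-loop signal without MCM8. A promoter peak was found in KO and not in WT at 12 members (17.6%, against 9.38% of all coding genes) and in WT and not in KO at 9 (13.2%, against 4.66%), and in both lists at 12 (17.6%, against 6.66%). The genes of the first kind were Hnrnpa0, Hnrnpa1, Hnrnpc, Hnrnpd, Hnrnpdl, Hnrnpr, Hnrnpu, Prpf18, Prpf38a, Snrpd2, Srsf1 and Srsf5, and those of the second Hnrnpa2b1, Hnrnpab, Hnrnpll, Snrpa, Srsf10, Srsf4, Srsf7, Srsf9 and U2af1. Of 12 and 9 genes, 7 and 3 were HNRNP genes. The KO list is the longer of the pair, with 9605 peaks against 6481. With the 4314 strongest peaks of each MEF list, 5 members were in KO and not WT and 8 in WT and not KO, so the excess in KO was not kept. Promoter peaks were then at 18 members in WT and 15 in KO (26.5% and 22.1%, against 9.12% and 10.8% of all coding genes). Members thus stood lower in KO than in WT, while all coding genes stood higher, and this difference was not tested. Genes in KO alone or WT alone were not counted over all coding genes under this setting.

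Hnrnpa1, which represses exons and shuttles to the cytoplasm, had the highest −log10 q of all members in KO (8.02), with a fold of 6.03 and 22 fragments at the summit, and no WT peak. It had folds of 4.05 in shControl and 5.49 in shDdx5, and it shares its promoter region with Cbx5. Its close relative Hnrnpa2b1, beside Cbx3, went the other way, with a fold of 4.95 in WT, none in KO, 5.26 in shControl and 5.82 in shDdx5. Hnrnpc, which binds U tracts and keeps hidden exons out, had folds of 3.7 in KO, 3.8 in shControl and 3.3 in shDdx5, and Hnrnpu, a nuclear scaffold protein, 3.37, 3.4 and 3.56. Both genes had no WT peak, and the shControl peak of Hnrnpu lay at a different site from its KO and shDdx5 peaks. Among the SR proteins, Srsf1, the founding member, had a peak in KO alone (3.25), and Srsf7 in WT (3.37) and shControl (3.76). These 3 peaks had 8 to 11 fragments at the summit and a −log10 q of at most 1.3.

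The shDdx5 and shControl lists asked the same of DDX5. A promoter peak was found in shDdx5 and not in shControl at 13 members (19.1%, against 13.3% of all coding genes), in shControl and not in shDdx5 at 8 (11.8%, against 4.97%) and in both at 20 (29.4%, against 9.77%). The first group held Hnrnpa0, Hnrnpa3, Hnrnpdl, Hnrnph2, Hnrnpll, Hnrnpm and Hnrnpr with Snrpa1, Snrpe, Snrpg, Srsf10, Srsf3 and Srsf6. The second held no HNRNP gene and consisted of Prpf18, Prpf38b, Prpf4b, Prpf6, Sf3a1, Snrpd1, Srsf11 and Srsf7. Of 28 members in shControl 71.4% were also in shDdx5, against 66.3% of all genes with a shControl peak. With the 4314 strongest peaks of each MEF list, 7 members were in shDdx5 and not shControl and 6 in shControl and not shDdx5. Promoter peaks were then at 20 members in shDdx5 and 19 in shControl (29.4% and 27.9%, against 14.1% and 9.06% of all coding genes). Little of the excess of members in shDdx5 was thus kept. Srsf3, which regulates its own splicing, had a fold of 3.09 in shDdx5 and none elsewhere, and Sf3a1, of the SF3A complex, 2.82 in shControl and none elsewhere. These are weak peaks, in the lower part of their lists, as Sf3a1 had 7 fragments at its summit.

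Both KO and shDdx5, and neither WT nor shControl, had a promoter peak at 3 members (4.41%, against 2.95% of all coding genes), which were Hnrnpa0, Hnrnpdl and Hnrnpr. The reverse pattern had 1 member, Srsf7 (1.47%, against 0.365%), whose WT and shControl peaks lay at different sites and did not overlap. The share of 4.41% is near the background, and its interval runs from 1.51 to 12.2%. Hnrnpa0, an intronless hnRNP gene of the A/B family, had folds of 3.12 in KO and 4.36 in shDdx5, with 8 and 15 fragments. Hnrnpdl, a relative of hnRNP D beside Enoph1, had 3.54 and 3.92, and Hnrnpr, known for binding neuronal mRNAs, 4.04 and 4.39. The KO and shDdx5 peaks of each of the 3 overlapped. All 3 were a little higher in shDdx5, and the KO peak of Hnrnpa0 had a −log10 q of 0.609. Their windows are shown because they are the members that the 2 perturbations have in common, again without exon sequence, on the gene strand and with G runs in capitals. Hnrnpa0 was read at chr13:58128867-58128967 (minus strand, mm10) and covered by the peaks of both lists. Hnrnpdl was read at chr5:100039884-100039984 (minus strand), which both peaks overlap, and Hnrnpr at chr4:136310696-136310796 (plus strand), under the shDdx5 peak alone.
Hnrnpa0, mouse: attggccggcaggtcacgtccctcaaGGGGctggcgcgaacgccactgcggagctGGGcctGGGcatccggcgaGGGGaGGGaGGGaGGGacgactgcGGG
Hnrnpdl, mouse: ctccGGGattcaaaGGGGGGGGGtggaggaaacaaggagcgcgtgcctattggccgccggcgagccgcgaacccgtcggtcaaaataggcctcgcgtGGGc
Hnrnpr, mouse: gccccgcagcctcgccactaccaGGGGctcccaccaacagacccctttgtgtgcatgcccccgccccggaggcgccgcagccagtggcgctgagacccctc

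The Hnrnpa0 window held 8 G runs, the Hnrnpdl window 3 and the Hnrnpr window 1, with 6 runs of C in the last. No single strand pattern was therefore shared by the 3 windows. All 3 lie upstream of the gene, and which strand was displaced there was not measured.

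In HEK293 cells most members with a promoter peak in S9.6 also had one in the list from cells with the RNH1 plasmid. Both S9.6 lists had a promoter peak at 33 members (43.4%, against 17.5% of all coding genes), S9.6 alone at 11 (14.5%, against 12.6%) and the RNH1 list alone at 7 (9.21%, against 7.18%). Of the 44 members in S9.6, 75% were also in the RNH1 list, against 58.1% of all genes with an S9.6 peak. The 11 genes in S9.6 alone were HNRNPH1, HNRNPH2, HNRNPH3, HNRNPM, HNRNPU, PRPF39, SF3A1, SF3B2, SF3B5, SRSF3 and U2AF2, and the 7 in the RNH1 list alone PRPF3, PRPF8, SF3A2, SNRPE, SRSF1, SRSF2 and SRSF4. All 3 HNRNPH genes, which encode hnRNPs that bind G runs, were in the first group. HNRNPF, of the same H family, instead had overlapping peaks near the gene start in both lists (3.72 and 3.69). A further S9.6 peak of HNRNPF (3.73) lay at an internal TSS. The HNRNPH genes had folds of 4.35, 7.08 and 6.12 in S9.6. The HNRNPH observation was made after the values were seen, and with only the gene start as TSS the first group fell to 6 members. HNRNPH1 was not among these, as its S9.6 peak lay in a coding exon at an internal TSS.

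HNRNPD, which binds AU-rich RNA, had the strongest S9.6 peak of all members, with a fold of 10.4 and 74 fragments, and 5.81 and 40 fragments after the RNH1 plasmid. HNRNPA0 went from 9.1 to 6.34 and HNRNPA2B1 from 7.75 to 4.59. These 3 had the highest −log10 q in S9.6 (48.2, 26.6 and 32.7) and were all lower in the RNH1 list, but they were picked as the highest of S9.6. High −log10 q in the RNH1 list were found at SF3B6, which touches the branch point adenosine (fold 6.36, and 7.12 in S9.6), and at HNRNPL (5.41 and 5.91). HNRNPC (6.47 in S9.6 and 6.17 in the RNH1 list), HNRNPK (6.8 and 7.15) and SNRPA, the U1 snRNP protein that binds its stem-loop (7.32 and 5.39), also had both. HNRNPK is thus an example without a lower value in the RNH1 list.

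**Figure D4:**
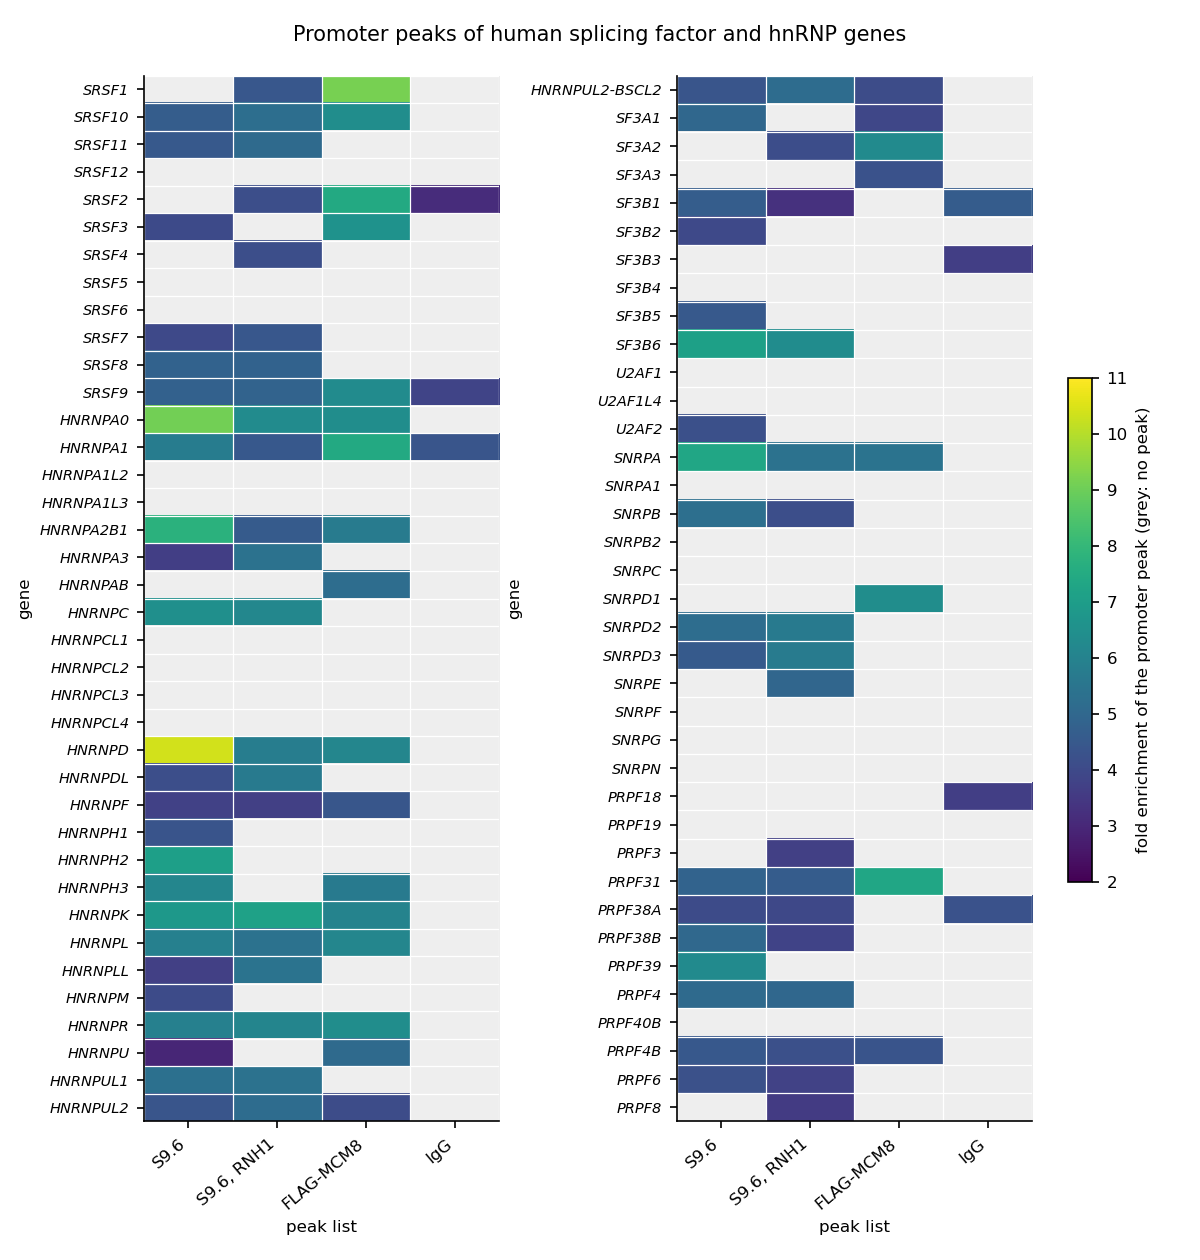
Fold enrichment of the promoter peak (colour, linear scale from 2 to 11) of human splicing factor and hnRNP genes (rows, in order of family, with 1 of the 76 left out) in the 4 peak lists of HEK293 cells (columns), with grey for no peak and the highest fold where a gene had several peaks. The brightest cell is HNRNPD in S9.6 at 10.4, the 6 HNRNPA1L and HNRNPCL genes are grey throughout, and the IgG column holds 7 filled cells.

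Human HNRNP genes had a promoter peak in S9.6 at 20 of 27 and after the RNH1 plasmid at 15. Of the 7 without an S9.6 peak, 6 were HNRNPA1L2, HNRNPA1L3 and HNRNPCL1 to HNRNPCL4, close copies of HNRNPA1 and HNRNPC that had no promoter peak in any HEK293 list. Reads of such copies are hard to place, so their lack of peaks is uncertain. Without these 6, an S9.6 promoter peak was at 20 of 21 HNRNP genes (95.2%, interval 77.3 to 99.2%) and missing only at HNRNPAB, while 15 of 21 had one after the RNH1 plasmid, 13 in FLAG-MCM8 and 1 in IgG. Some of these S9.6 peaks lay only at internal TSSs, as at HNRNPM and HNRNPH1, where the summit was in a coding exon. With only the gene start as TSS, members of all families with an S9.6 promoter peak fell from 44 to 36 of 76. HNRNP genes of HEK293 cells were not counted apart under this setting. HNRNPUL2 and the readthrough gene HNRNPUL2-BSCL2 share a start and count as 2 members with 1 peak. The PRPF family had 8 of 13 in S9.6 and 9 in the RNH1 list, and the SRSF family 6 and 8 of 12. SF3B had 4 and 2 of 6, and SNRP 4 and 5 of 12. All coding genes stood at 30.1% in S9.6, 24.6% in the RNH1 list, 12% in FLAG-MCM8 and 5.59% in IgG. The S9.6 and RNH1 shares of all coding genes lay inside the intervals of SF3B and SNRP, and the S9.6 share inside that of SRSF. SNRPN, an imprinted snRNP gene, had no promoter peak in any of the 9 lists, and U2AF1, the small U2AF subunit, had one in WT MEFs alone (3.63).

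The FLAG-MCM8 library asked where tagged MCM8 sits. Its list had a promoter peak shared with S9.6 and absent from IgG at 18 members (23.7%, against 6.53% of all coding genes). All 3 lists of FLAG-MCM8, S9.6 and RNH1 had one at 16 (21.1%, against 5.81%), and FLAG-MCM8 without either S9.6 list at 3 (3.95%, against 3.39%), which were HNRNPAB, SF3A3 and SNRPD1. Of the 26 members with a FLAG-MCM8 promoter peak 76.9% had one in S9.6, against 61.5% of all genes. The peaks overlapped each other at 18 of these 20 shared members, which include HNRNPA1 and SRSF9, both with an IgG promoter peak. At HNRNPU and SF3A1, which belong to the members absent from IgG, the FLAG-MCM8 and S9.6 peaks lay at different sites and did not overlap. The median fold of members' FLAG-MCM8 promoter peaks was 6.09, against 4.92 over all promoter peaks of that list. This was the widest such gap among the lists, as the medians were 4.75 and 4.62 in S9.6 and 3.95 and 3.87 in shDdx5.

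The strongest FLAG-MCM8 peaks at members were at SRSF1 (9.17, with 30 fragments), HNRNPA1 (7.45, with 34) and SRSF2 (7.48, with 26). SRSF1 and SRSF2 had no S9.6 promoter peak, though both had one after the RNH1 plasmid (4.44 and 4.17), and HNRNPA1 and SRSF2 also had one in IgG (4.37 and 3.16). These 3 promoters therefore do not fall in the group of 18. In that group the highest −log10 q were at PRPF31 (fold 7.31), whose protein holds the tri-snRNP together, HNRNPL (6.13), SRSF10 (6.42), a splicing repressor, SRSF3 (6.58), HNRNPA0 and HNRNPR (both 6.4). The remaining genes included HNRNPA2B1, HNRNPD, HNRNPF, HNRNPH3, HNRNPK, HNRNPU, HNRNPUL2, HNRNPUL2-BSCL2, PRPF4B, SF3A1 and SNRPA. By family FLAG-MCM8 had a promoter peak at 13 of 27 HNRNP, 5 of 12 SRSF and 3 of 3 SF3A genes. It had one at 2 of 12 SNRP, 3 of 13 PRPF, 0 of 6 SF3B and 0 of 3 U2AF genes. All coding genes stood at 12%, which lay inside the intervals of SNRP, PRPF, SF3B and U2AF. The intervals of SF3B and U2AF reached 39.0% and 56.1%.

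The control lists touched few members. Without antibody, the 2 promoter peaks included that of Prpf38a (fold 3.23, 3 fragments at the summit), whose summit lay in an intron at -920 bp from the nearest, internal TSS. In IgG they were at HNRNPA1 (4.37), PRPF38A (4.28), SF3B1 (4.61), SRSF9 (3.84), PRPF18 (3.68), SF3B3 (3.68) and SRSF2 (3.16). PRPF38A, a protein needed to activate the spliceosome, thus had a control peak in both species but at unlike sites, as the human IgG peak lay upstream of the gene, within 1 kb of a TSS of ORC1, and the mouse peak inside the gene. For SF3B1, the largest SF3B subunit, the IgG fold of 4.61 was close to that of S9.6 (4.65) and above that after the RNH1 plasmid (3.27). These folds belong to unlike sites, as the IgG peak had its summit in an intron and overlapped neither the S9.6 nor the RNH1 peak. The mouse gene Sf3b1 had no promoter peak in any list. Among members with no other coding TSS within 1 kb, 0 of 43 had a promoter peak without antibody and 1 of 46 in IgG, against 1.22% and 5.39% of all such genes.

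Over gene bodies, members stood less far from the background, and away from promoters they stood below it. Counting any peak with at least 1 base within the gene, 16 members had one in WT (against 16.9% of all coding genes), 18 in KO (23.0%), 24 in shControl (24.7%), 29 in shDdx5 (29.4%) and 4 without antibody (7.51%), which was 23.5%, 26.5%, 35.3%, 42.6% and 5.88% of members. In HEK293 cells 40 had one in S9.6 (39.2%), 35 after the RNH1 plasmid (33.0%), 24 in FLAG-MCM8 (25.9%) and 14 in IgG (25.4%), or 52.6%, 46.1%, 31.6% and 18.4% of members. In the S9.6 lists and in FLAG-MCM8 most of these members had no such peak away from a promoter, whereas in IgG 8 of the 14 and without antibody 3 of the 4 did. Away from promoters, members with a peak over the body numbered 2 in WT (2.94%, against 8.81%), 5 in KO (7.35%, against 12.2%), 5 in shControl (7.35%, against 15.6%), 3 in shDdx5 (4.41%, against 13.1%) and 3 without antibody (4.41%, against 6.65%). In HEK293 cells they numbered 5 in S9.6 (6.58%, against 19.5%), 7 after the RNH1 plasmid (9.21%, against 16.7%), 7 in FLAG-MCM8 (9.21%, against 18.4%) and 8 in IgG (10.5%, against 22.1%). Members were below the background in all 9 lists, and they are shorter genes, with a median of 13976 bp against 17425 bp in mouse and 16331 bp against 27471 bp in human.

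Few members had peaks inside the gene in several lists, and these were often at different sites. HNRNPA2B1 had intronic peaks away from its promoter in all 4 HEK293 lists, at folds of 2.98 to 4.27. Both of its S9.6 peaks overlapped one after the RNH1 plasmid, the IgG peak also overlapped one of these, and the FLAG-MCM8 peak overlapped none. PRPF40B, which had no promoter peak in HEK293 cells, had overlapping intronic peaks in S9.6 (3.47) and the RNH1 list (3.74), while its 2 IgG peaks, of which the stronger had a fold of 5.8, lay elsewhere. PRPF31 had intronic peaks in FLAG-MCM8 (4.83 and 3.88) and after the RNH1 plasmid (3.02 and 3.22), and the second of each overlapped. In MEFs Hnrnpf had an intronic peak in WT (3.39), KO (3.2) and shControl (3.33), at 3 sites that did not overlap. Snrpn and Hnrnpab had one without antibody alone, and Sf3b1 one without antibody (3.36) and another in KO (3.47) that did not overlap it.

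Summits of members' promoter peaks lay upstream of the TSS more often than those of other genes in the MEF lists. The median summit lay at -145 bp from the nearest TSS of the gene in WT (negative is upstream), at -157 bp in KO, -87 bp in shControl and -176 bp in shDdx5, against -34, -35, -24.5 and -19 bp over all coding genes with a promoter peak. The share of summits downstream was 17.4%, 26.9%, 32.1% and 17.1% for members and 40.3%, 40.9%, 43.7% and 44.1% for all. Where no other coding TSS lay within 1 kb, members had 3 of 13 downstream in WT, 6 of 14 in KO, 5 of 14 in shControl and 5 of 22 in shDdx5. In KO this was 42.9% against 43.8% of all such genes, so there the difference was not seen, and in shDdx5 it was 22.7% against 46.2%. In HEK293 cells 43.8% were downstream in S9.6, against 41.6% of all, while the shares were 32.6% against 42.7% after the RNH1 plasmid and 33.3% against 46.8% in FLAG-MCM8, with medians of -80 against -26 bp and -96 against -13 bp.

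**Figure D5:**
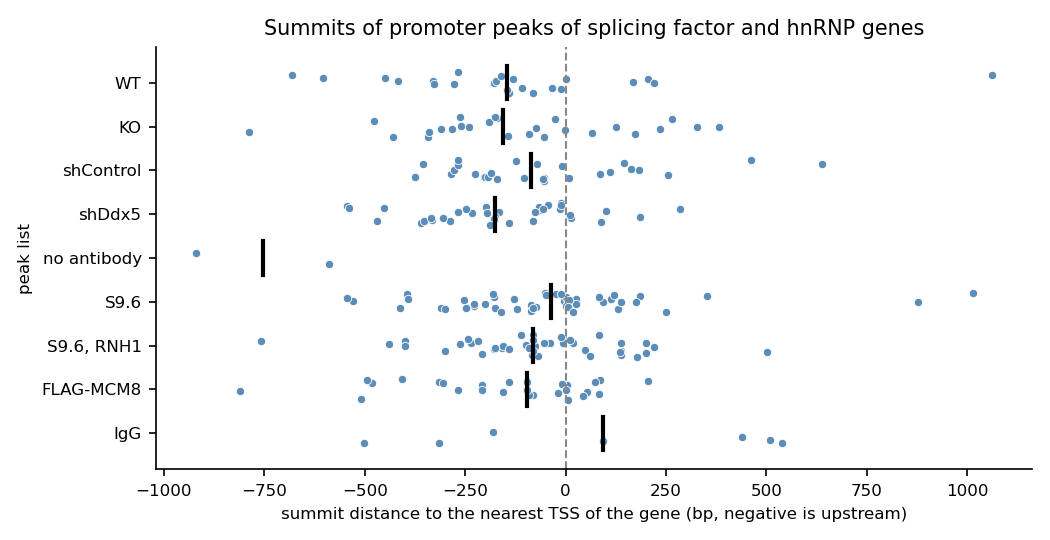
Distance from the summit of each promoter peak of a splicing factor or hnRNP gene to the nearest TSS of that gene (bp, horizontal axis, negative is upstream) in the 9 peak lists (rows), with each peak as a point and the median as a bar. The medians of the 4 S9.6 lists of MEFs lie at -176 to -87 bp, and that of S9.6 in HEK293 cells at -36.5 bp.

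Promoters with peaks in many MEF lists more often had one in HEK293 cells, among members and among coding genes in general. Of the 68 members with the same symbol in both species, 36 had a promoter peak in at least 1 S9.6 list of MEFs and in S9.6 of HEK293 cells, 12 in MEFs alone, 6 in HEK293 cells alone and 14 in neither. The first kind made up 52.9% of these members, against 21.3% of the 15713 coding genes with the same symbol in both species. An S9.6 peak in HEK293 cells was at 6 of 20 members with no MEF list, 13 of 21 with 1 list, 7 of 8 with 2, 5 of 7 with 3 and 11 of 12 with all 4. These shares were 30%, 61.9%, 87.5%, 71.4% and 91.7%, against 20.8%, 39.0%, 50.3%, 63.3% and 72.8% of all coding genes. Srsf2 was the exception among the 12, as human SRSF2 had a peak in every HEK293 list but S9.6. PRPF8, the core of the spliceosome's active site, had a promoter peak only after the RNH1 plasmid (3.58), and mouse Prpf8 had none. SNRPA had one in 3 HEK293 lists and its mouse counterpart in WT alone (4.21). The 2 cell types differ in species, threshold and annotation, and no test of their likeness was made.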

How the data were processed

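Peaks from 9 CUT&Tag libraries (5 of MEFs, 4 of HEK293 cells) were used, each library being a group of its own by its labels. The authors trimmed the reads, aligned them with bowtie2 to mm10 or hg38, and called peaks in each library with MACS2, with no input from the no-antibody sample. The submitters' processing notes name Trimmomatic, Bowtie2 and MACS2 2.1.2, while the study's methods name another release of MACS2. Use of IgG as input and treatment of duplicate reads are not given in the sources used here.

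Per peak, the authors deposited the fold (ratio of summit to local background), a −log10 p and a −log10 q. The deposited score repeats the p and was not used, and another column gives the summit offset. Summit pileup (fragments) and background were solved from each fold and Poisson p, with a whole-number pileup found for every peak with a −log10 p under 250. The lowest background divided by the shortest peak length gave fragments per Mb, a relative depth.

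Promoter peaks had a midpoint within 1 kb of a TSS, and body peaks at least 1 base in the gene. Shares carry 95% Wilson intervals, and PCR reads are not independent molecules, so intervals cover counting error only. Counting and recovery were tested on simulated data. Alternatives were windows of 500 bp and 2 kb, any base within 1 kb, the gene start only, a fold of at least 4, a q of 0.05 or lower, equal numbers of strongest peaks, CpG-rich genes and genes with no other coding TSS nearby. The members, gene lists and tests were chosen with earlier results of these data known. Genes were named with values by a fixed rule, which took 16 set genes, mouse genes in all 4 S9.6 lists or in KO and shDdx5 alone (and the reverse), human genes in FLAG-MCM8 and S9.6, genes with a control peak and the 3 highest −log10 q per list, with the 6 highest in classes over 12. Some genes that meet this rule are not reported here. Sequences came from the mm10 and hg38 genome assemblies. Python 3.11.15, pandas 2.3.3, numpy 2.4.6, scipy 1.17.1, pysam 0.24.0 and matplotlib 3.10.9 were used.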

Additional observations from a re-analysis of the deposited data

Results flagged for a closer look

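In 2 gene families the KO and shDdx5 lists moved in opposite directions against their partners. SRSF genes with a promoter peak numbered 5 in WT and 3 in KO (a difference of -2) but 4 in shControl and 5 in shDdx5 (a difference of 1). PRPF genes numbered 2 in WT and 4 in KO (a difference of 2) but 6 in shControl and 2 in shDdx5 (a difference of -4). The share of all coding genes with a promoter peak was 11.3% against 16.0% in the first pair of lists and 14.7% against 23.1% in the second, and the lists differ in length. These are differences of 1 to 4 genes in families of 11 and 13, and with 1 library per group, neither difference between the comparisons was tested.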

How the results depend on the processing

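Of 220 alternative values of the main counts, 157 stayed within 1.5 times the reported count (or, for shares less background, inside the Wilson interval). The gap of members to background changed sign in the 2 control lists alone. With a fold of at least 4, promoter peaks were at 11 members in WT, 10 in KO, 12 in shControl, 17 in shDdx5, 1 without antibody and 3 in IgG. KO and not WT then held 4, WT and not KO 5, shDdx5 and not shControl 7, the reverse 2, and KO with shDdx5 alone 1. Body peaks were at 7, 6, 8, 12, 0 and 6 of the same lists, and the other splicing genes numbered 4, 8, 5, 14 and 0 in MEFs and 17 after the RNH1 plasmid. With a q of 0.05 or lower, promoter peaks were at 12 members in WT, 14 in KO, 18 in shControl and 0 without antibody. KO and not WT held 7, WT and not KO 5, and shControl and not shDdx5 5, body peaks were at 9, 7, 12 and 0, and the other splicing genes numbered 6 in WT, 5 in shControl and 0 without antibody. With the 4314 strongest peaks of each MEF list and 12497 of each HEK293 list, promoter peaks were at 15 members in KO, 20 in shDdx5 and 3 in IgG. KO and not WT held 5, shDdx5 and not shControl 7, and KO with shDdx5 alone 1, while body peaks were at 8 in KO, 15 in shControl, 15 in shDdx5 and 7 in IgG, and the other splicing genes numbered 5 in shControl and 23 in shDdx5. These 3 settings remove peaks by construction. With a 500 bp window the no-antibody list had 0 members and 0 other splicing genes, and with 2 kb the other splicing genes were 2 there and 6 in IgG. With the gene start only, the no-antibody list had 1 member and IgG 4, S9.6 and not RNH1 held 6, and the other splicing genes were 0 and 1 in these controls. Against CpG-rich genes the gap of members to background was 8.43 percentage points in KO (19.3 against all genes) and 10.6 in shDdx5 (25.4), and without shared promoters it was -1.22 without antibody (1.71 with them) and -3.21 in IgG (3.62), and the cause was not tested. Alternatives for HNRNP and the other splicing genes, and the 6481 strongest peaks of each S9.6 list of MEFs (7 other splicing genes in shControl), were chosen after seeing the data. No paired analysis was possible because each group held 1 library. For the same reason no replicate could be left out.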
